A study of Mus musculus with 4 samples.

Results

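The genes described here are 10 genes of tight junctions, the 8 claudins *Cldn3*, *Cldn4*, *Cldn6*, *Cldn7*, *Cldn9*, *Cldn10*, *Cldn11* and *Cldn14*, the scaffold gene *Tjp1* (ZO-1) and the tricellulin gene *Marveld2*. They were taken by symbol, and all 10 symbols listed were found among the 12814 genes of the table. RNA was sequenced from inner-ear cells of *Atoh1/nGFP* mice on the C57BL/6 background at postnatal day 1, an age given by the study. Hair cells (HCs), the mechanosensory cells of the ear, were sorted as positive for both the green fluorescent protein and the epithelial surface protein CD326. Epithelial non-sensory cells (ENSCs), called epithelial non-HCs in the study, were positive for CD326 alone. Each population came from the hearing organ, the cochlea, and from the organs of balance, the vestibular system. All groups carried the transgene and none was treated. The reporter is driven by *Atoh1* regulatory sequence, and the ears of several mice were pooled for a replicate. ENSCs are a mixture by construction, since every CD326-positive cell without the fluorescent protein falls into that gate.

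Each of the 4 populations had 1 library in the table, although the design text speaks of triplicates. Differences between libraries therefore have no replicate error, and nothing below was tested for significance. The value of a gene is a quantile-normalized read signal with a floor of 20, not divided by gene length. The sorted signals are identical in the 4 columns (sum 7830343, median 120), so that the depth of each library is unknown. The lowest signals of a library are tied, that is they do not rank genes, up to 24.25 in cochlear HCs, 22.75 in cochlear ENSCs, 30.5 in vestibular HCs and 20 in vestibular ENSCs. A fold against a tied signal is given as a lower bound against the top of that range. A difference of at least 3-fold, the threshold of the study, is called higher or lower. All 10 HC markers examined were at least 3-fold higher in HCs of both organs, and *Epcam*, which encodes CD326, had a signal of 1016.75 in cochlear HCs, 3376.25 in cochlear ENSCs, 1139.25 in vestibular HCs and 7511 in vestibular ENSCs. The sort marker itself was thus at least 3-fold lower in HCs of both organs as deposited (log2 ratios -1.73 and -2.72, and -1.58 and -2.18 after the length and GC correction given below, the former then just under 3-fold). In such bulk samples, fewer cells of a type and less RNA per cell cannot be told apart.

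Tight junctions seal neighbouring epithelial cells near their apical surface, and claudins are the 4-pass membrane proteins that form the strands and set which ions may pass between the cells. In the inner ear these junctions separate the potassium-rich endolymph that bathes the hair bundles from the fluid around the cell bodies. Tricellulin closes the corners where 3 cells meet, and ZO-1 ties the strands to the actin cytoskeleton.

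The promoters of 5 claudins are shown, those of *Cldn3*, *Cldn4*, *Cldn6* and *Cldn11*, which were lower in HCs by over 16-fold as deposited in at least 1 organ, and that of *Cldn14*, the one member higher in HCs. They come from RefSeq (GRCm38.p6, a different build from the mm9 coordinates used for the genes below) and run from 250 bases before to 50 bases after the transcription start. Capitals mark matches, on either strand, to any of 4 motifs. The first is the E-box, CAGNTG, the site of basic helix-loop-helix factors such as ATOH1. The next is a half-site of RFX factors, GTTGCC, after the family that the study followed in HCs. The third is the TATA box, TATAAA, which places the start of transcription in some promoters. The last is the grainyhead site, AACNNGTT, bound by factors that keep epithelial barriers. The stretches are chr5:134985964-134986263 on the + strand for *Cldn3*, chr5:134946885-134947184 on the - strand for *Cldn4*, chr17:23679115-23679414 on the + strand for *Cldn6*, chr3:31149670-31149969 on the + strand for *Cldn11*, and chr16:94008788-94009087 on the - strand for the most upstream start of *Cldn14*.
Cldn3: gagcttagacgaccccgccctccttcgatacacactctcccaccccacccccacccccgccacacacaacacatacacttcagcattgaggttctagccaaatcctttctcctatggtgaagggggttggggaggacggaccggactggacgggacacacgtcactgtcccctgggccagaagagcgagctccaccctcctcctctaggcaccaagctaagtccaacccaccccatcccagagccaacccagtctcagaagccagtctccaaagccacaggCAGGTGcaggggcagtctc
Cldn4: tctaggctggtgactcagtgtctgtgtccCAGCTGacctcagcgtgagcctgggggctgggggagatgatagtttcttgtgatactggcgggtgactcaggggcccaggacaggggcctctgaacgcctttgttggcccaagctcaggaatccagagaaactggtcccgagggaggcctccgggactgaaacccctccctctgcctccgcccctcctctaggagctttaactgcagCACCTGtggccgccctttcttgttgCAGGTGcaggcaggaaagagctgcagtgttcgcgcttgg
Cldn6: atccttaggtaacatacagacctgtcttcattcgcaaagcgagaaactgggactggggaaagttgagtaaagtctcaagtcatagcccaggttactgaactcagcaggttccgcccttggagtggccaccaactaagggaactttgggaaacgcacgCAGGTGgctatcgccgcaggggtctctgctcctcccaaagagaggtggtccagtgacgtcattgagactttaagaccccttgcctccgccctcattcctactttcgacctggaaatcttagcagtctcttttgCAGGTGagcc
Cldn11: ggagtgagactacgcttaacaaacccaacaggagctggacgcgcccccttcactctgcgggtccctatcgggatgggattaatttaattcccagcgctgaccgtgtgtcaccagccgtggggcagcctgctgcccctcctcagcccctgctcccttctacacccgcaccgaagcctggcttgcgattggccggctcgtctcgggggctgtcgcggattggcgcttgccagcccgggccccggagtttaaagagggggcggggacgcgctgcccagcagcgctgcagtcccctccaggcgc
Cldn14: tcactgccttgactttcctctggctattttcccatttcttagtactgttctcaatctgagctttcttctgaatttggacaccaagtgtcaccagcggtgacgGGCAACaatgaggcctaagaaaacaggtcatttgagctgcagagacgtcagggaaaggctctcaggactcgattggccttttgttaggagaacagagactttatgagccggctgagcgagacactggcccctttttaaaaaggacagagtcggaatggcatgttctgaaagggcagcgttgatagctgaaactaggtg

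The promoter table held 14 promoters of 9 of the 10 genes, and *Cldn9* was the gene without one. An E-box was found in 9 of these 14 promoters, against 51.4% of the 32851 promoters in the table. A pair of *Cldn14* promoters overlap and share an E-box, as do both *Marveld2* promoters, so that these 9 are not all separate sites. The *Cldn4* promoter held 3 E-boxes, that of *Cldn6* held 2 and that of *Cldn3* held 1. The RFX half-site stood in 2 of the 14, the upstream promoter of *Cldn14* and that of *Tjp1*, against 12.5% of all promoters. A TATA box was found in the 2 overlapping promoters of *Marveld2* (13.6% of all promoters) and a grainyhead site in none of the 14 (4.2% of all promoters). The marked matches did not overlap one another. A match is a run of letters and not evidence that a factor binds there, and the *Cldn11* promoter printed above had no match to any of the 4 motifs.

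The first question was how the 10 genes differed between HCs and ENSCs of the same organ. In the cochlea 4 of the 10 genes were lower in HCs (*Cldn4*, *Cldn6*, *Cldn7* and *Cldn11*), against 9.2% of all genes, and 1 (*Cldn14*) was higher, against 8.39%. The other 5 were under 3-fold. In the vestibular system 7 of the 10 were lower in HCs, namely every claudin of the group except *Cldn14*, against 14.3% of all genes, and none was higher, against 13.8%. The median log2 ratio of HCs to ENSCs over the 10 genes was -0.31 for the cochlea. For the vestibular system it was -2.77. Over all genes the medians were 0 and -0.005.

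**Figure D1:**
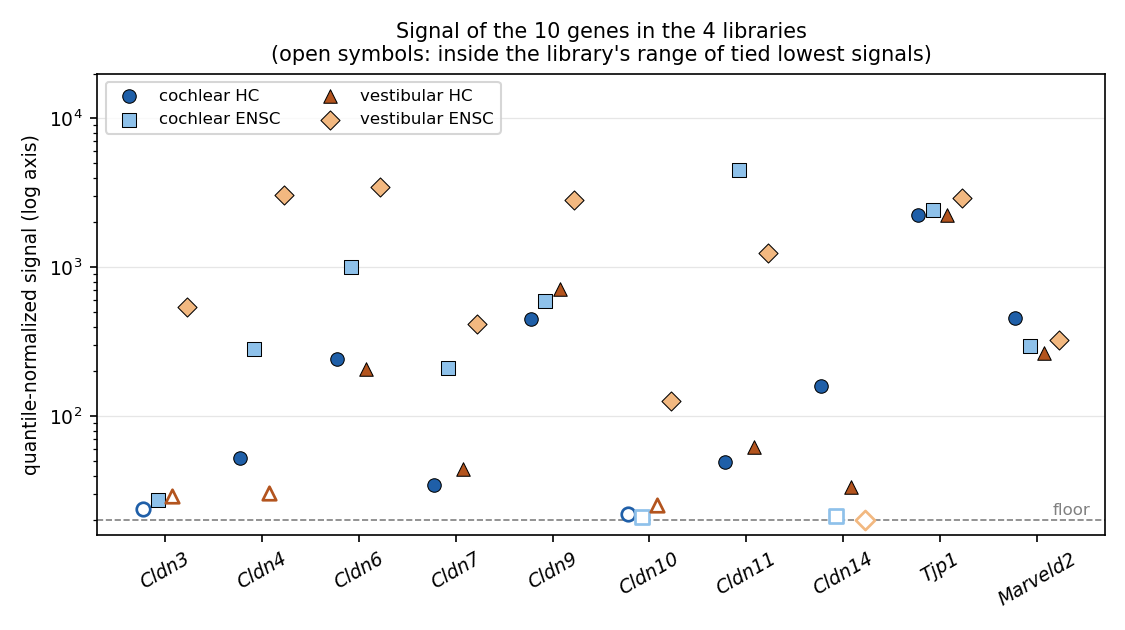
Quantile-normalized signal (log axis) of the 10 genes in the 4 libraries, with 1 point per library and open symbols for signals inside the tied range. Vestibular ENSCs have the highest point for *Cldn3*, *Cldn4*, *Cldn6*, *Cldn7*, *Cldn9* and *Cldn10*, cochlear ENSCs for *Cldn11*, and cochlear HCs for *Cldn14*, while the 4 points of *Tjp1* lie between 2250.75 and 2926.5.

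*Cldn11*, the claudin of myelin and of the basal cells of the stria vascularis, had the largest ratio of the 10 genes in the cochlea. Its signal was 49.25 in cochlear HCs, 4500.25 in cochlear ENSCs, 62.25 in vestibular HCs and 1245 in vestibular ENSCs. The HC libraries were both low and the ENSC libraries both high, a 91.4-fold difference in the cochlea (log2 ratio -6.51) and a 20-fold one in the vestibular system (-4.32). This was the lowest cochlear ratio of all 12814 genes. *Cldn11* (ENSMUSG00000037625) lies on chr3:31048868-31063246 on the + strand, with 3 exonic blocks.

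*Cldn4*, a barrier-forming claudin of many epithelia, had the largest ratio in the vestibular system. Its signal was 52.75 in cochlear HCs, 280.75 in cochlear ENSCs, 30.5 in vestibular HCs, which is inside the tied range, and 3065.75 in vestibular ENSCs. It was 5.32-fold lower in HCs of the cochlea and at least 101-fold lower in HCs of the vestibular system. The cochlear log2 ratio of -2.41 came under the threshold with a floor of 100 (-1.49) and with a pseudocount of 100 (-1.32). *Cldn3*, its neighbour in the genome and also a barrier-forming claudin, had a signal of 23.75, 27.5, 29 and 539.25 in the same order. Only vestibular ENSCs had a signal of *Cldn3* well above the tied ranges, and it was there at least 17.7-fold higher than in vestibular HCs. In the cochlea both *Cldn3* signals were near the lowest in their libraries and differed by at least 1.13-fold. *Cldn4* (ENSMUSG00000047501) lies on chr5:135420996-135422804 on the - strand and *Cldn3* (ENSMUSG00000070473) on chr5:135462084-135463342 on the + strand. Each has 1 exonic block, and 40 nt of that of *Cldn3* overlap an exon of *Wbscr25* on the other strand. Whether reads were counted by strand is not given in the sources used here.

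*Cldn6* and *Cldn9* form another pair of neighbours, on chr17, with their 3' ends 138 nt apart. *Cldn6* (ENSMUSG00000023906, chr17:23816332-23819413, + strand) is a claudin of embryonic and newborn epithelia. It had a signal of 240.5 in cochlear HCs, 998.5 in cochlear ENSCs, 207 in vestibular HCs and 3461.75 in vestibular ENSCs, so that it was 4.15-fold lower in HCs of the cochlea and 16.7-fold lower in HCs of the vestibular system. *Cldn9* (ENSMUSG00000066720, chr17:23819552-23820985, - strand), whose loss causes deafness in mice, had a signal of 448, 591, 718.75 and 2844.25 in the same order. *Cldn9* thus had a clear signal in all 4 libraries and differed little between HCs and ENSCs of the cochlea (1.32-fold), while it was 3.96-fold lower in HCs of the vestibular system. Each 50-nt stretch of the exons of both genes, as of the other 8, was found at 1 place only in the mm9 genome, so that reads within these exons are not shared with another copy.

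*Cldn7*, a claudin of basolateral as well as junctional membranes that binds the CD326 protein, had a signal of 34.75 in cochlear HCs, 211.5 in cochlear ENSCs, 44.25 in vestibular HCs and 415.5 in vestibular ENSCs. Both HC libraries were below both ENSC libraries, by 6.09-fold within the cochlea and 9.39-fold within the vestibular system. The cochlear log2 ratio of *Cldn7*, -2.61, came under the threshold with a floor of 100 (-1.08) and with a pseudocount of 100 (-1.21). *Cldn10*, whose isoforms form ion pores, was inside the tied range in cochlear HCs (22), cochlear ENSCs (21) and vestibular HCs (25.5). In vestibular ENSCs it was 126.75, at least 4.16-fold higher than in vestibular HCs. With floors of 50 and 100 and a pseudocount of 100 the vestibular log2 ratio of *Cldn10*, -2.31, became -1.34, -0.34 and -0.85, and its ratio between the ENSC libraries also came under the threshold in each. *Cldn7* (ENSMUSG00000018569) lies on chr11:69778281-69781387 and *Cldn10* (ENSMUSG00000022132) on chr14:119187093-119274711, both on the + strand.

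*Cldn14*, which is mutated in a recessive human deafness, went the other way. Its signal was 160.75 in cochlear HCs, 21.25 in cochlear ENSCs, 33.75 in vestibular HCs and 20 in vestibular ENSCs. Both ENSC signals were inside the tied range, and the HC signal exceeded that of ENSCs by at least 7.07-fold in the cochlea and by at least 1.69-fold among vestibular cells. With a floor of 100 the cochlear log2 ratio of 2.92 became 0.69, and with a pseudocount of 100 it became 1.11, both under the threshold. *Cldn14* was also the only one of the 10 genes that differed by 3-fold or more between the HC libraries. *Cldn14* (ENSMUSG00000047109) spans chr16:93919276-94009082 on the - strand, with 4 annotated transcripts.

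*Tjp1* and *Marveld2*, the members that are not claudins, differed by less than 3-fold in every contrast. *Tjp1* (ENSMUSG00000030516, chr7:72441051-72516125, - strand) had a signal of 2258 in cochlear HCs, 2432.75 in cochlear ENSCs, 2250.75 in vestibular HCs and 2926.5 in vestibular ENSCs. Its highest signal was 1.3 times its lowest, the smallest such range among the 10 genes. *Marveld2* (ENSMUSG00000021636, chr13:101365912-101386926, - strand), mutated like *Cldn14* in recessive deafness, had 455.75, 298.5, 265.75 and 323.25 in the same order. Its highest signal was in cochlear HCs, 1.53-fold above cochlear ENSCs and 1.71-fold above vestibular HCs.

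**Figure D2:**
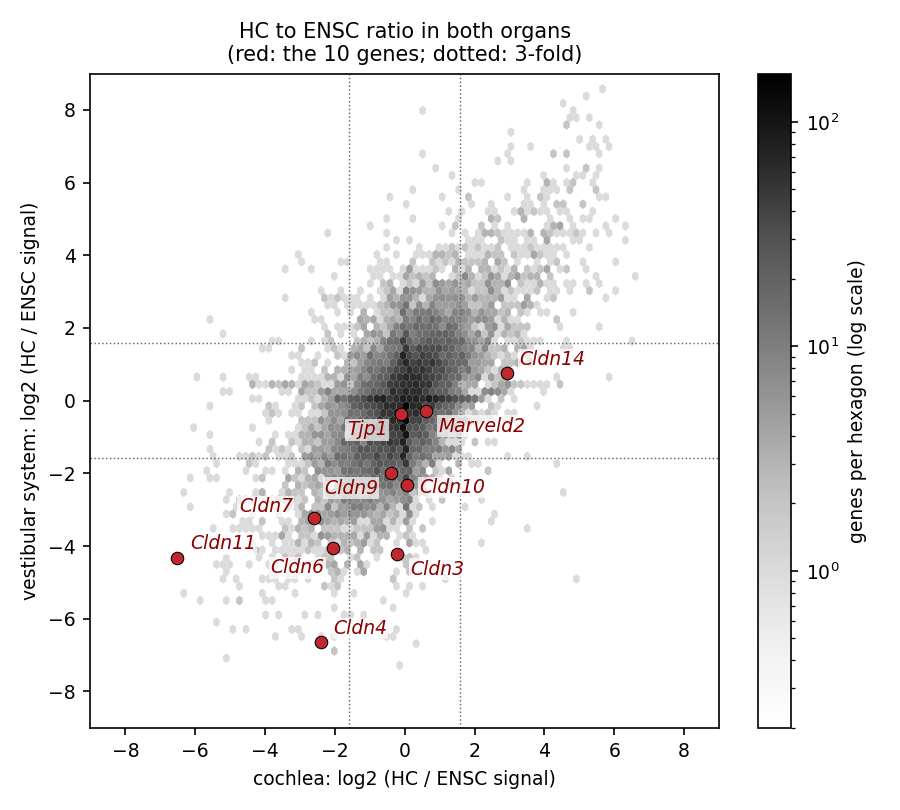
Log2 ratio of the HC to the ENSC signal in the cochlea (x axis) and in the vestibular system (y axis), with all 12814 genes as grey hexagons, the 10 genes in red and dotted lines at 3-fold. *Cldn4*, *Cldn6*, *Cldn7* and *Cldn11* lie past 3-fold below 0 on both axes, *Cldn3*, *Cldn9* and *Cldn10* on the vestibular axis alone, and *Cldn14* past 3-fold above 0 on the cochlear axis.

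The second question was how the organs differed within one cell population. Each of these contrasts shares a library with each contrast above, so they are not independent of it. Between cochlear and vestibular HCs, 1 of the 10 genes was higher in the cochlea (*Cldn14*, 4.76-fold), against 4.21% of all genes, and none was lower, against 5.09%. The log2 ratio of *Cldn14*, 2.25, became 0.69 with a floor of 100 and 0.96 with a pseudocount of 100, both under the threshold. *Cldn4* was at least 1.73-fold higher in the cochlea, its vestibular HC signal being tied. *Cldn3* and *Cldn10* were inside the tied ranges of both libraries, and the remaining 6 were within 1.71-fold. Between cochlear and vestibular ENSCs, 1 gene was higher in the cochlea (*Cldn11*, 3.61-fold), against 7.8% of all genes, and 5 were lower, against 7.94%. These 5 were *Cldn3* (19.6-fold), *Cldn4* (10.9-fold), *Cldn10* (at least 5.57-fold), *Cldn9* (4.81-fold) and *Cldn6* (3.47-fold). *Cldn7* was 1.96-fold lower in cochlear than in vestibular ENSCs, and *Tjp1* and *Marveld2* were within 1.2-fold. At this threshold the claudin differences between the organs thus lay mostly in the ENSC libraries. In HCs, *Cldn3*, *Cldn4*, *Cldn7*, *Cldn10* and *Cldn11* had signals of at most 62.25, near the floor. A 3-fold difference between the HC libraries had little room to appear for them.

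The vestibular ENSC library had higher signals for GC-rich genes, and most of these claudins are GC-rich, with exonic GC contents from 54.1% to 62.7% in 6 of the 8, while *Cldn10* (49.4%) and *Cldn11* (50.4%) are near the median of all genes. The exons of the 10 genes had a median GC content of 55.4%, against 48.8% over the 12799 genes found in the annotation. Across genes, the vestibular log2 ratio of HCs to ENSCs fell with GC content (Spearman's rho = -0.40 over 10358 genes, which share both libraries), and so did the ratio of cochlear to vestibular ENSCs (rho = -0.45 over 10475 genes). The cochlear ratio of HCs to ENSCs hardly did (rho = -0.04 over 10722 genes). The trends on exonic length and then GC content were subtracted. *Cldn4* remained lower in vestibular HCs than in ENSCs by 50.1-fold, *Cldn11* 16.6-fold, *Cldn6* 10.2-fold, *Cldn3* 6.29-fold, *Cldn7* 4.51-fold and *Cldn10* 3.68-fold. The vestibular HC signals of *Cldn3*, *Cldn4* and *Cldn10* are tied. Their folds here are deposited bounds shifted by a fitted trend, and so estimates rather than bounds. *Cldn9* was then 1.96-fold lower, under the threshold. The log2 ratio of *Cldn14* went from 0.76 to 1.87, past the threshold, but its ENSC signal is at the floor and the trends were fitted on genes above it, so that nothing is read from this call. The counts in the vestibular system became 6 lower, against 10.6% of all annotated genes after the same correction. The 1 higher, against 14.1%, is this call of *Cldn14*, from which nothing is read. Between the ENSC libraries *Cldn6* (2.42-fold) and *Cldn9* (2.82-fold) came under 3-fold, which left 3 genes lower in the cochlea, against 4.96% of all genes, and 1 higher, against 7.45%. The cochlear counts stayed at 4 lower, against 8.8%, and 1 higher, against 8.62%. Whether base composition had a part in the deposited differences was not tested otherwise.

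**Figure D3:**
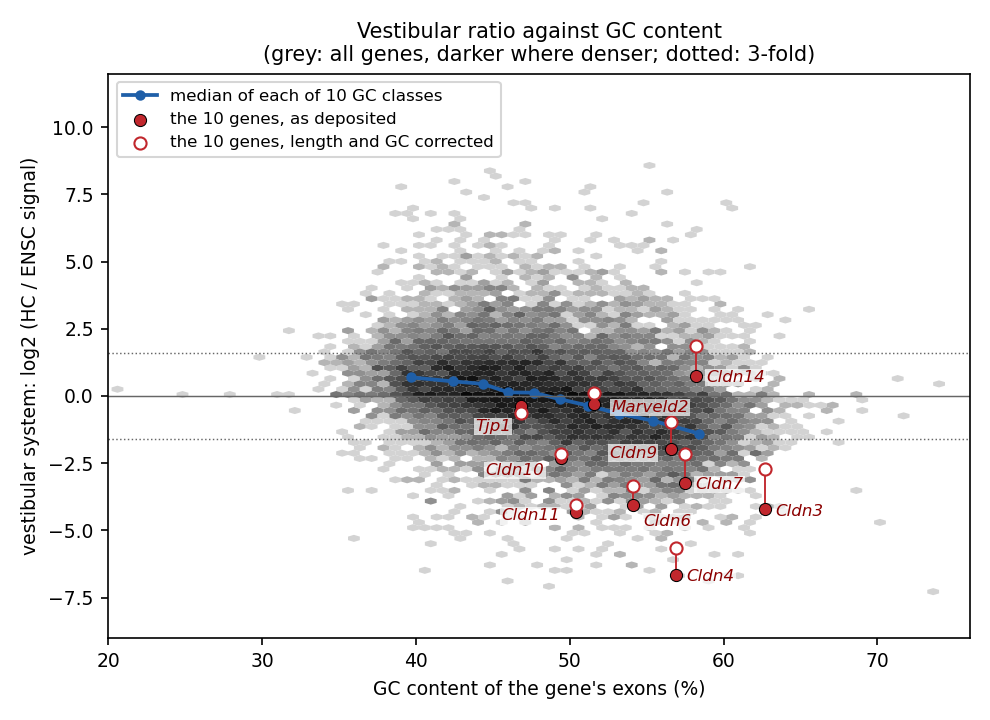
Log2 ratio of vestibular HCs to vestibular ENSCs (y axis) against the GC content of a gene's exons in % (x axis), with the 12799 annotated genes in grey, the median of each of 10 equal GC classes of the 10358 genes above the floor in both libraries in blue, and the 10 genes as deposited (filled) and after subtraction of the length and GC trends (open). The median falls from 0.69 in the class with the lowest GC content to -1.40 in that with the highest, and the open symbols of *Cldn3*, *Cldn4*, *Cldn6*, *Cldn7*, *Cldn10* and *Cldn11* remain past 3-fold.

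To compare levels between claudins, the signal was divided by exonic length in kb. On this scale the 13 claudin genes of the table, that is the 8 above and *Cldn1*, *Cldn8*, *Cldn12*, *Cldn22* and *Cldn23*, summed to 887 per kb in cochlear HCs, 4744 in cochlear ENSCs, 1255 in vestibular HCs and 10974 in vestibular ENSCs. A row named *Cldn25* was left out, since RefSeq gives its identifier as *Cldnd1*. These sums and the shares below use deposited signals without the GC correction, and the vestibular ENSC library had higher signals for GC-rich genes. *Cldn9* had the largest share of this sum in both HC libraries, 35.2% in cochlear and 39.9% in vestibular HCs, and had 8.69% in cochlear and 18.1% in vestibular ENSCs. *Cldn11* made up 51.4% of the sum in cochlear ENSCs, 6.15% in vestibular ENSCs, and 3.01% and 2.69% in cochlear and vestibular HCs. Cochlear ENSCs were thus the library where 1 claudin made up most of the claudin signal.

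The share of *Cldn6* was between 10.9% and 20.9% in the 4 libraries, and that of *Cldn4* was 15.4% in vestibular ENSCs and at most 3.29% elsewhere. *Cldn14* held 9.21% in cochlear HCs, 1.37% in vestibular HCs and at most 0.228% in ENSCs. Among the claudins outside the group of 10, *Cldn8* held 30.9% in vestibular ENSCs and *Cldn12* 28.8% in vestibular HCs. Per kb, *Tjp1* was close to the same level in cochlear HCs (307), cochlear ENSCs (331) and vestibular HCs (306), and 398 in vestibular ENSCs. In cochlear HCs this was near the 312 per kb of *Cldn9*, whereas in cochlear ENSCs *Cldn11*, at 2440 per kb, stood far above it.

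**Figure D4:**
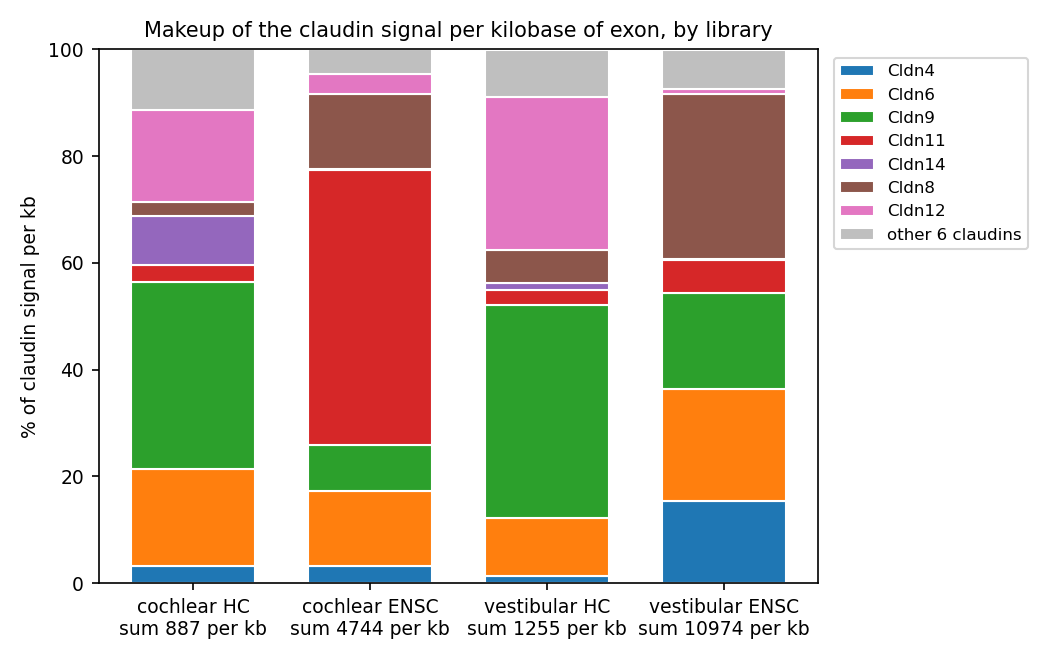
Share of each claudin, in %, of the summed claudin signal per kb of exon, with 1 bar per library and the sum under each bar. Signals are as deposited, without the GC correction. *Cldn9* has the largest block in both HC libraries, *Cldn11* (51.4%) in cochlear ENSCs and *Cldn8* (30.9%) in vestibular ENSCs.

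The other genes of the junction were taken from lists by family, and their counts stand beside the same shares of all genes as above (in the cochlea 8.39% higher and 9.2% lower, in the vestibular system 13.8% and 14.3%). With lists of 4 to 14 genes, none of these counts was taken to differ from those shares. Of the 6 other genes of the claudin list, here with the *Cldn25* row, 1 was lower in HCs in each organ, *Cldn8*, a barrier claudin of the distal nephron, with a signal of 57.75 in cochlear HCs, 1575 in cochlear ENSCs, 181.25 in vestibular HCs and 7994.5 in vestibular ENSCs. *Cldn12* was higher in vestibular HCs than in vestibular ENSCs (1472 and 443.75), but not in the cochlea (622.25 and 700.75). Of 5 further genes of the tricellular and MARVEL families, 1 was lower in HCs of the cochlea and 2 in the vestibular system. *Marveld1*, named after its values were seen, was at least 4.86-fold lower in HCs of the cochlea, but its vestibular HC signal was tied, and against the top of the tied range the difference there was at least 2.83-fold, which is short of the threshold. Occludin (*Ocln*), a strand protein related to tricellulin, was lower in the vestibular system alone at this threshold, with 350, 889.5, 322.5 and 1329.75 in cochlear HCs, cochlear ENSCs, vestibular HCs and vestibular ENSCs. *Ildr1*, which recruits tricellulin to cell corners, was like *Marveld2* under 3-fold in both organs (405.5, 423.75, 306 and 383.75), and was named after its values were seen.

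Of 13 scaffold genes, 3 were lower in HCs of the cochlea, 2 in the vestibular system, and none was higher. *Cgnl1* (paracingulin) and *Amotl1* (an angiomotin) were lower in both organs. *Amotl2* was lower in cochlear HCs alone at this threshold, where it had 179.75 against 1735.25 in ENSCs, and vestibular HCs had 597.75 against 795.25. Of 14 apical polarity genes, 1 was lower in HCs of the cochlea (*Prkci*, an atypical protein kinase C), and in the vestibular system 2 were lower, *Pard6b* and *Llgl2*, and 1 higher, *Pard3b*. *Llgl2*, at exactly 3-fold, was named after its values were seen. Of the 4 genes of the JAM family, *Jam2*, a junctional adhesion molecule, was higher in HCs of the cochlea (190 and 35.25) and lower in HCs of the vestibular system (114.75 and 1071.5).

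Adherens junctions lie just below the tight junctions and join the actin belts of neighbouring cells. Of their 10 genes, 3 were higher and 2 lower in HCs of the cochlea, and 1 was higher and 3 lower in HCs of the vestibular system. The largest difference was that of *Cdh1* (E-cadherin), with a signal of 6003 in cochlear HCs, 4852.75 in cochlear ENSCs, 178.5 in vestibular HCs and 3308.25 in vestibular ENSCs, so that only vestibular HCs were low. *Ctnna1* (alpha-catenin) was lower in HCs of both organs, *Pvrl2* (nectin-2) lower in the vestibular system alone, and *Mllt4* (afadin) higher in HCs of the cochlea alone at this threshold. The others past 3-fold, named after their values were seen, were *Pvrl1* (higher in HCs of both organs), *Cdh2* (higher in HCs of the cochlea) and *Pvrl4* (lower in HCs of the cochlea). After subtraction of the length and GC trends, the vestibular log2 ratios of *Cldn12* (1.51), *Pard3b* (1.33), *Marveld1* (-0.68) and *Llgl2* (-0.40) came under 3-fold, as did the cochlear one of *Cdh2* (1.48). Those of *Prkci* (-1.94), *Ctnnd1* (-1.75) and *Csda* (2.46) in the vestibular system came past it, the last 2 named after their values were seen. The adherens junction list then had 2 genes higher and 2 lower for the cochlea, with 1 higher and 4 lower for the vestibular system. The median log2 ratios of these lists in the vestibular system, between -1.06 and -0.41, were nearer to 0 than the -2.77 of the 10 genes, with no test of that difference. After the length and GC correction they lay between -1.22 and 0.34, that of the scaffolds having changed sign from -0.41, and that of the 10 genes was -2.16.

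**Figure D5:**
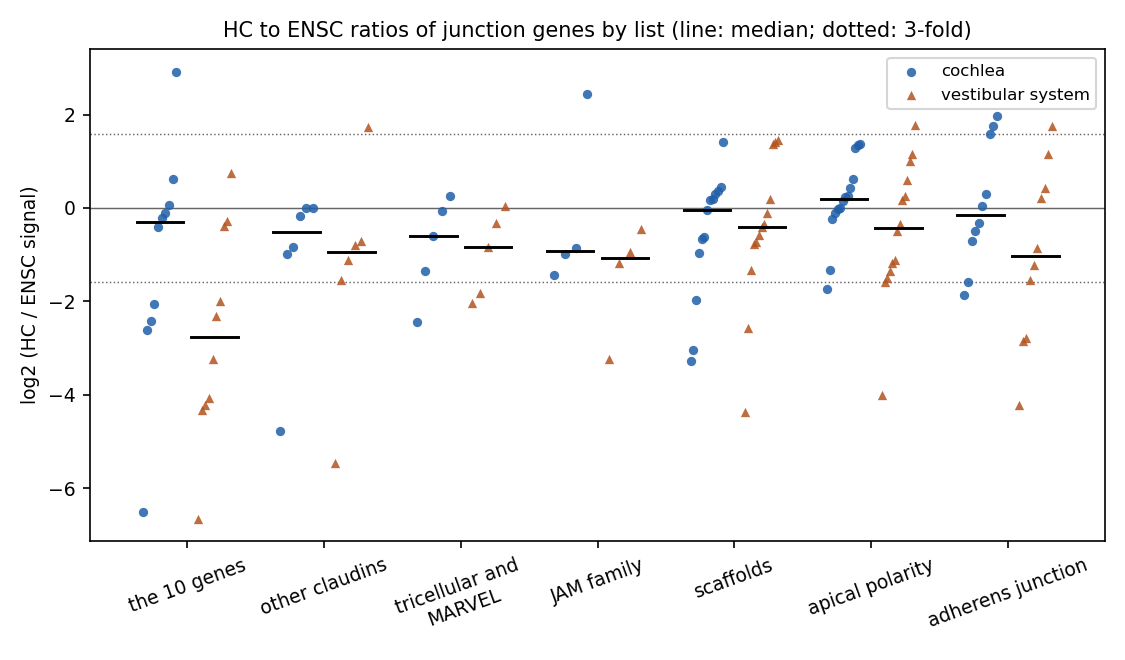
Log2 ratio of the HC to the ENSC signal for the 10 genes and the genes of 6 further junction lists, with 1 point per gene, blue circles for the cochlea, orange triangles for the vestibular system, a bar at each median and dotted lines at 3-fold. The vestibular median of the 10 genes is -2.77, and those of the other lists lie between -1.06 and -0.41.

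Genes with the most similar pattern were found among 6719 protein-coding genes by the largest difference in log2 signal over the 4 libraries, each gene centred on its own mean. With 4 libraries this is a description of shape alone, and it includes tied signals. The most similar genes were *Sox8* (0.15) and *Ddit4l* (0.15) for *Cldn3*, *Hspg2* (0.54) and *Ptgds* (0.55) for *Cldn4*, and *Fat1* (0.09) and *Sdc2* (0.14) for *Cldn6*. They were *Arrb1* (0.07) and *Fam20a* (0.11) for *Cldn7*, and *Abca3* (0.06) and *Ldhb* (0.11) for *Cldn9*. *Sox8* and *Ddit4l* were inside the tied range in every library except vestibular ENSCs, so their likeness to *Cldn3* rests on that library. *Hspg2*, *Ptgds*, *Arrb1*, *Fam20a* and *Pi15* had at least 1 tied signal. *Cldn11* had no gene as close, the nearest being *Pi15* (0.57) and *Col1a2* (0.73).

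Markers of other cell types differed between the libraries along with some of these claudins. Mesenchyme, glia and endothelium are not epithelia, and the sort of the study placed CD326-negative cells in a separate gate. Beside *Cldn11*, 3 of the 7 mesenchyme markers in the table were at least 3-fold higher in ENSCs of the cochlea. These were *Ogn*, *Postn* and the collagen gene *Col1a2*. In the vestibular system 5 of 7 were, while *Pdgfra* was higher in both HC libraries. Of all genes, 9.2% were this much higher in ENSCs of the cochlea and 14.3% in ENSCs of the vestibular system. The shares higher in HCs were 8.39% and 13.8%. The marker counts were not tested against these shares. The summed mesenchyme signal was 662 in cochlear HCs, 5990.5 in cochlear ENSCs, 411.5 in vestibular HCs and 4085.25 in vestibular ENSCs. *Ogn* was the largest part in ENSCs, with 42.25, 3231.5, 52.25 and 2066.75 in the same order. *Pdgfra* made up 481.75 of the sum in cochlear HCs. Of the 7 markers, 4 were inside the tied range in cochlear HCs, 1 in cochlear ENSCs, 3 in vestibular HCs and none in vestibular ENSCs. Of the 5 glia and myelin markers, 4 were higher in cochlear ENSCs and 3 in vestibular ENSCs than in the HCs of the same organ, with sums of 1001, 2249, 574.75 and 3680.75 in the same order. The part of either cell type in the *Cldn11* difference was not tested.

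The 6 epithelial markers were taken beside the 6 claudins highest in vestibular ENSCs. They summed to 7426.75 in cochlear HCs, 9909.25 in cochlear ENSCs, 1816.5 in vestibular HCs and 20282.25 in vestibular ENSCs. Of the 6, 5 were at least 3-fold higher in ENSCs of the vestibular system, against 14.3% of all genes. In the cochlea 4 of the 6 markers were, against 9.2%. Without *Cdh1*, the most abundant of them in the cochlea, the sums were 1423.75, 5056.5, 1638 and 16974. The 6 markers of stria marginal or vestibular dark cells, epithelia that secrete endolymph, summed to 5674.25, 18755.25, 5714.5 and 18937.25. Of these markers, 3 were at least 3-fold higher in vestibular than in cochlear ENSCs, against 7.94% of all genes. *Esrrb* was among them (72.75 in cochlear and 1234.75 in vestibular ENSCs). Without *Slc12a2* the sums of this list were 973.25, 3724.75, 474.5 and 10886. The 10 supporting cell markers went the other way between the ENSC libraries, with sums of 16168.25, 98992.5, 13851.25 and 23518.5, and 4 of them were at least 3-fold higher and 1 lower in cochlear than in vestibular ENSCs. Without *Epyc* the sums of the supporting cell list were 15404.5, 36964, 13641.25 and 22399.25. The endothelial marker *Kdr*, 1 of 6 in the table, had 1461.75 in vestibular ENSCs and at most 29.75 elsewhere. With the length and GC correction, the epithelial markers past 3-fold in the cochlea went from 4 to 3, against a corrected share of 8.8%. In the vestibular system those lower in HCs went from 3 to 2 in the glia list and from 5 to 4 in the stria or dark cell list. They went from 5 to 6 in the mesenchyme list, through *Tbx18*, whose vestibular HC signal (20.5) is tied. The corrected share for these vestibular counts was 10.6%. The supporting cell markers higher in cochlear than in vestibular ENSCs then went from 4 to 6, against a corrected share of 7.45%. Those gained were *Tecta* and *Hes5*. The vestibular ENSC signal of *Hes5* is at the floor, so that nothing is read from its call. The part of these cell types in the claudin differences was not tested.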

How the data were processed

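The 4 mouse libraries, 1 per population, were grouped by their source names and matched to columns by title. RNA, labelled as polyadenylated but given as total RNA input in the study's methods, was amplified with NuGEN Ovation. The authors used TopHat to align the first 50 nt of reads to mm9 and HTSeq to count them over ENSEMBL genes. The study describes quantile normalization and then a floor of 20, so the deposited value is a signal and no longer a count. A floor set last would tie signals at 20 alone, whereas the tied range of vestibular HCs reaches 30.5. The order of these steps is therefore uncertain. Versions and strand setting are not given in the sources used here. Quantile normalization removes differences in depth and total RNA between libraries.

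Deposited signals were compared as log2 ratios with no pseudocount, and genes past 3-fold were counted. With 1 library per group there was no test. Positions, exonic length and GC content came from the GENCODE annotation of NCBIM37 (mm9), which held 12799 of the 12814 genes. Trends on length and GC were fitted by local regression (statsmodels 0.14.6, fraction 0.3, 2 robust iterations). The method was checked on simulated data.

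The genes named were the 10 genes, for each that reached 200 and varied 3-fold its 2 most similar genes, and up to 4 per junction list past 3-fold with a signal of at least 200. The members, lists and alternatives were chosen with earlier results of these data known. One gene of the scaffold list is not reported here. Alternatives were floors of 50 and 100, pseudocounts of 20 and 100, a minimum of 100, centring, 2-fold and 5-fold thresholds, tied signals raised to the top of their range, and the length and GC correction.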

Additional observations from a re-analysis of the deposited data

Results flagged for a closer look

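For 7 of the genes described, with no tied signal, the HC library was above the ENSC library in one organ and below it in the other. Genes of the junction lists that the text does not describe are not given here, whatever their direction. With 1 library per group the difference between organs was not tested. It is given here as the vestibular log2 ratio of HCs to ENSCs minus the cochlear one. *Marveld2* differed by -0.89, under 3-fold in both organs, and its vestibular ratio after the length and GC correction was 0.11, on the same side as the cochlear ratio of 0.61. *Jam2* differed by -5.65, the largest of the 7, and was past 3-fold in both organs. *Cdh1* differed by -4.52 and *Pvrl2* by -2.83, each past 3-fold in the vestibular system alone. The cochlear log2 ratio of *Pvrl2* was 0.03 (159.25 in HCs and 155.5 in ENSCs), hardly a difference, and that of *Cdh1* was 0.31. *Llgl2* differed by -2.20, at exactly 3-fold in the vestibular system and under it after the correction. *Cldn12* differed by 1.90 and *Csda* by 1.46, the 2 of the 7 with the higher HC signal in the vestibular system. The cochlear log2 ratio of *Cldn12* was small, -0.17. The cochlear log2 ratio of *Csda* was -0.05 and became 0.16 after the correction, on the same side as its vestibular ratio.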

How the results depend on the processing

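The cochlear count of HCs against ENSCs, 5 of the 10 genes past 3-fold, became 2 with a floor of 100 and 2 with a pseudocount of 100. The count between HC libraries, 1 gene (*Cldn14*), became 0 with a floor of 100, 0 with a pseudocount of 100 and 0 at 5-fold. The count between ENSC libraries, 6 genes, became 3 at 5-fold. By construction these settings shrink ratios of low signals or ask for a larger fold. The vestibular count of HCs against ENSCs, 7 genes, stayed within 1.5 times under all alternatives. Of the 40 ratios (10 genes in 4 contrasts), none changed direction while past the threshold. A floor of 50 took 2 under the threshold, a floor of 100 took 6, a pseudocount of 100 took 6, and 5-fold took 7. Those lost with a floor or pseudocount of 100 were *Cldn4*, *Cldn7* and *Cldn14* in the cochlea, *Cldn10* in the vestibular system and between ENSCs, and *Cldn14* between HCs. The length and GC correction took 3 under it and brought 1 past it, that of *Cldn14* in the vestibular system, whose ENSC signal is at the floor. A pseudocount of 20, centring, a 2-fold threshold and raised ties lost none. The labels give no replicate numbers to pair. A model with organ as a block, which would take the 2 organs as replicates, was not run because the organs are themselves compared. Leaving out a library would remove the contrasts it is in. Counting error has no interval here because the depth is unknown, and differences among signals inside the tied ranges cannot be read.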

Other observations

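Other junction genes, chosen after their values were seen, had large signals in HCs. *Mpdz*, a scaffold with many PDZ domains that binds claudins, had 2930.5 in cochlear HCs, 1103 in cochlear ENSCs, 3242.25 in vestibular HCs and 1259.5 in vestibular ENSCs, so that both HC libraries were above both ENSC libraries, under 3-fold. *Cdh2* (N-cadherin) had 1538, 510, 1313.5 and 586 in the same order. *Cxadr*, an adhesion receptor of the JAM family, had 2747.5, 7385.25, 4575 and 6280.5, with the ENSC library above the HC library in both organs and under 3-fold in each. *F11r* (JAM-A) was higher in the cochlea than in the vestibular system in both populations, with 1768 and 3485.25 in cochlear HCs and ENSCs and 657.75 and 1260 in vestibular ones, again under 3-fold as deposited. After the length and GC correction the log2 ratio of *F11r* between cochlear and vestibular ENSCs was 1.67, past 3-fold.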
